A study of Mus musculus with 2 samples.

Results

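The liver cells described here are 51 neutrophil-like cells among 6079 that passed the cell filter, and they were selected on the measured counts of 5 neutrophil genes. A cell had to have at least 100 genes with a count and at most 10% mitochondrial counts. N was the raw sum of Cxcr2, Retnlg, Mmp9, S100a8 and S100a9, and M was the raw sum of 4 macrophage genes, Siglec1, Tbxas1, Lair1 and Clec4f. A cell was kept when N was at least 5, reached at least 20 per 10000 counts of the cell and was over 2 times M. Livers of 27-week-old mice fed a high-fat, high-sugar diet (HF/HSD) from 7 weeks of age were profiled with a probe-based single-cell assay for fixed RNA, with 1 library for each genotype. The library labelled AEG-1DMAC is described as a knockout of AEG-1 (gene Mtdh) in myeloid cells, made by crossing floxed mice with a LysM/Cre line, whose Cre sits in the Lyz2 locus. The library labelled AEG-1fl/fl comes from floxed littermates, so floxed Mtdh is present in both. The sex of the animals in these libraries and any pooling of livers were not stated. The library labelled AEG-1DMAC held 4 of them among 2571 cells and the library labelled AEG-1fl/fl held 47 among 3508, so the cells were pooled and each library is given by its counts alone.

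Neutrophils are short-lived granulocytes that leave the bone marrow under the control of granulocyte colony-stimulating factor and chemokine receptors, and reach the liver through its sinusoids. They make their granule proteins in order while they mature, primary granules first, then secondary and tertiary granules, and mature blood neutrophils carry the proteins with little of the early mRNA. They kill microbes with granule contents and reactive oxygen, and are a known part of the inflammatory infiltrate of steatohepatitis.

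Mtdh, the gene that the Cre is meant to delete, was higher in the library labelled AEG-1DMAC outside the neutrophil-like cells. Among cells gated for macrophage genes in the same way (M at least 5, at least 20 per 10000 and over 2 times N), Mtdh stood at 116 counts per 1000000 counts (CPM) in the library labelled AEG-1DMAC (Poisson 95% interval 101 to 131, 200 cells). Its level was 27.3 CPM (22.4 to 33.0, 428 cells) in the library labelled AEG-1fl/fl. Over all cells the levels were 67.9 CPM (66.1 to 69.7) and 59.0 CPM (57.4 to 60.6). The macrophage-gated cells labelled as the knockout therefore had the higher Mtdh level. They were also fewer, 200 of 2571 cells against 428 of 3508. The published study reports fewer cells of a Kupffer cell cluster in AEG-1DMAC livers on this diet. It also reports weaker macrophage and antineutrophil staining there, a measure of protein in liver sections of males and females. For the neutrophil cluster of its single-cell data, however, it reports no significant difference in cell number and little change in expression. The cause of the difference in Mtdh or in cell number was not tested, and the genotype names are used below as labels only. In the neutrophil-like cells Mtdh (ENSMUSG00000022255, chr15:34082694-34145624, GRCm38) had 7 counts, in 7 cells with 1 count each, all labelled AEG-1fl/fl, and stood at 0.626-fold (0.251 to 1.29) of all other cells. The 4 cells labelled AEG-1DMAC had 0 counts of Mtdh in 11534, which allows up to 260 CPM, so a difference in these cells was not detectable at this depth. All intervals here are at 95% and cover counting error only, Poisson for counts and Clopper-Pearson for ratios and shares, and neither library has a replicate.

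The libraries held 79589511 deposited counts in 2581 cells (labelled AEG-1DMAC) and 90440089 in 3535 cells (labelled AEG-1fl/fl), and the cell filter left out 10 and 27 of these cells, of which 0 passed the limits on N and M. A total of 10 barcodes occurred in both libraries, and 0 of them belonged to a neutrophil-like cell. The 51 cells together had 177166 counts, 11534 of them in the 4 cells labelled AEG-1DMAC and 165632 in the 47 cells labelled AEG-1fl/fl. Their totals ran from 738 to 14873 with a median of 2052, against a median of 9373.5 in the 6028 other cells and 5988 in the 628 macrophage-gated cells. The neutrophil-like cells were thus shallow, with a median of 1196 genes against 3218 in all other cells. They held 2145 of the 4009 counts of the 5 selecting genes in the data (53.5%), while 917 other cells had at least 1 such count.

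The selecting genes are given as a description. Cxcr2, a receptor for neutrophil chemokines, had 207 counts in 46 of the 51 cells, and Mmp9, the gelatinase of tertiary granules, had 258 counts in 47 cells. S100a8 and S100a9, which pair to form calprotectin and lie next to each other on chromosome 3 (chr3:90668978-90670035 and chr3:90692632-90695721), had 806 counts in 46 cells and 823 in 45 cells. Retnlg, a resistin-like secreted protein, was found in 10 cells only, with 51 counts. Most cells passed on several genes: 30 cells had 4 of the 5, 9 cells had all 5, 7 had 3, 3 had 2 and 2 had 1. Without S100a8 and S100a9 in N, 33 cells would have been kept. The lowest kept cells had N of 5 and 22.5 per 10000, and 32 of the 51 had no count of M. Just outside the limits lay 3 cells with N of 3, 16 cells that missed only the level per 10000 (highest 18.7, median total 11466) and 2 cells whose N was not over 2 times M (7 against 4, and 87 against 86). Csf3r, which selected no cell, had 38 counts in 3 of those 3 cells, 217 counts in 13 of the 16 and 41 counts in both of the last pair.

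**Figure D1:**
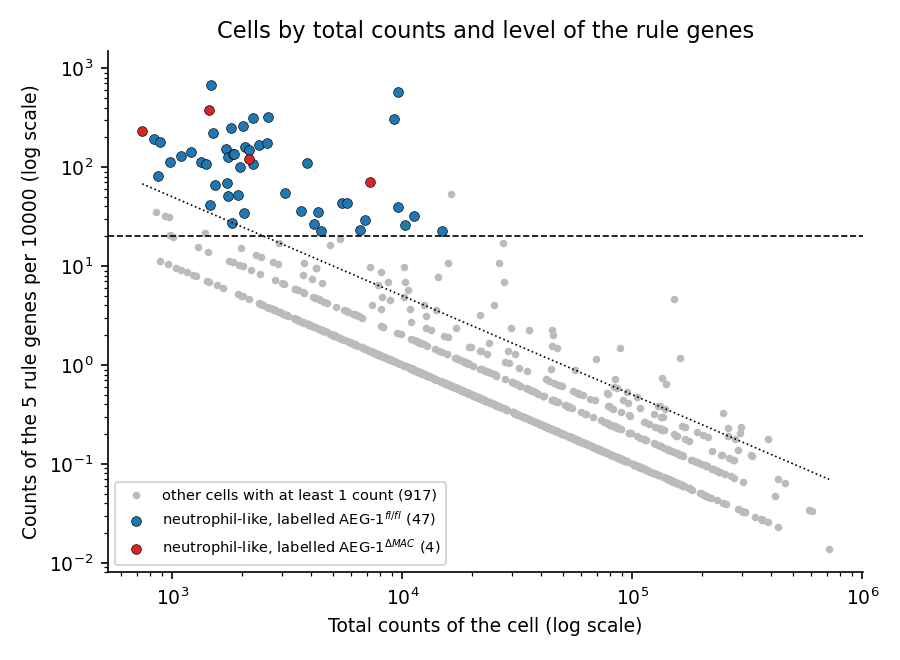
Each point is a cell with at least 1 count of the 5 selecting genes, placed by its total counts and by those genes' counts per 10000 counts of the cell (both log scales), with neutrophil-like cells in colour by library label and other cells in grey; the dashed line is 20 per 10000 and the dotted line is 5 raw counts. The 51 coloured cells lie above the dashed line and on or above the dotted line at totals of 738 to 14873, and 2 grey cells above both lines have N not over 2 times M.

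Csf3r and Srgn served as neutrophil markers that the selection had not used, and Csf3r was among the genes that set these cells furthest apart. Csf3r (ENSMUSG00000028859, chr4:126024550-126044440, GRCm38) encodes the receptor for granulocyte colony-stimulating factor, and had 1144 counts in 48 of the 51 cells. Its level was 6457 CPM (6088 to 6843), which was 372-fold (347 to 398) that of all other cells and 41.6-fold (38.1 to 45.4) that of macrophage-gated cells. A count of Csf3r was seen in 94.1% of neutrophil-like cells (median total 2052) and in 3.58% of 503 endothelial-gated cells (median total 3982), a type that should lack it. With every cell thinned to 700 counts, the expected shares were 88.3% and 0.361%. Among macrophage-gated cells 59.9% had a count, and 12.4% at 700 counts. Srgn, the serglycin core protein that packs granule contents in many blood cells, had 376 counts in 48 cells, 32.8-fold (29.6 to 36.4) and 6.05-fold (5.41 to 6.75) over the same comparators. Srgn marked the cells less sharply, with a count in 94.1% of them, 60.0% of endothelial-gated cells and 84.6% of 91 cells gated for T and NK genes (median total 2883), or 75.3%, 18.0% and 45.7% at 700 counts.

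Across all genes, 10770 of 19059 had a count in the neutrophil-like cells, and 4396 could be compared with all other cells, which required at least 10 counts observed or expected in the 51 cells. Of these, 1519 (34.6%) were at least 2-fold higher by the ratio of CPM and 708 (16.1%) at least 2-fold lower, with a median log2 ratio of 0.33. Against macrophage-gated cells, 665 of 4785 genes (13.9%) were higher and 900 (18.8%) lower, with a median of -0.05. Higher and lower carry these 2-fold limits from here on. With only cells gated for another nonparenchymal type as comparator, 670 genes were higher in place of 1519 and 827 lower in place of 708, so that more genes were lower than higher. The 4 cells labelled AEG-1DMAC alone gave 77 higher and 90 lower. The genes lower than in macrophage-gated cells went from 900 to 463 without the 9 cells over 3 times the median total, to 537 with N of at least 40 per 10000 and to 541 with N without S100a8 and S100a9. Under the same settings 695, 704 and 599 genes were higher in place of 665, so that more were higher than lower. A minimum of 20 counts in place of 10 left 858 genes higher and 401 lower against all other cells, and 423 higher and 413 lower against macrophage-gated cells. The minimum bears on these counts, since a gene with fewer than 5 counts expected enters only if it is at least 2-fold higher. With 10 counts expected as the minimum, 285 of 2763 genes (10.3%) were higher and 708 (25.6%) lower than in all other cells (median log2 -0.43), and 207 of 3967 (5.22%) higher and 900 (22.7%) lower than in macrophage-gated cells (median -0.26). With no minimum, 3282 of 15986 genes (20.5%) were higher and 6826 (42.7%) lower than in all other cells (median -0.54), and 1855 of 13941 (13.3%) higher and 5265 (37.8%) lower than in macrophage-gated cells (median -0.47). Which direction held more genes thus changed with the minimum, the comparator and the cells kept. The lists below are therefore counted with no minimum, over each member with a count in either group, where a member at 0 in the neutrophil-like cells counts as lower, and are read against these last shares. This choice was made after the data were seen.

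Among genes with at least 20 counts, in at least 10 cells and with no cell over 50% of the counts, the highest ratios against all other cells belonged to Slfn4, Asprv1, Il1r2 and Il1f9. Granule genes counted mostly in 1 cell, described below, had higher ratios. Slfn4 (ENSMUSG00000000204, chr11:83175186-83190216, GRCm38), an interferon-induced Schlafen gene of myeloid cells, led with 240 counts in 36 cells, 1358-fold (1111 to 1663) over all other cells and 316-fold (211 to 494) over macrophage-gated cells. The 51 cells held 58.7% of all its counts. Asprv1, a retroviral-like aspartic protease, had 39 counts in 16 cells and stood 1130-fold (692 to 1854) higher. The macrophage-gated cells had 0 counts, which makes it at least 446-fold there, at a floor of 3 counts over the group. That floor leaves out the counting error of its own 39 counts. Il1r2, the decoy receptor that binds interleukin 1 without signalling, had 80 counts in 26 cells and was 831-fold (608 to 1134) higher. Il1f9, a cytokine of the interleukin 1 family, followed with 57 counts in 26 cells, 641-fold (450 to 907), and at least 651-fold over macrophage-gated cells, which had 0 counts. Each of these leading genes was spread over at least 16 cells. The conditions above already required at least 10 cells and no cell over 50% of the counts, so nothing is read from that spread.

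Next came Alox5, Cd101, Padi4 and Pglyrp1. Alox5, which starts leukotriene synthesis, had 27 counts spread over 23 cells and stood 600-fold (357 to 994) higher. Cd101, a surface glycoprotein of mature neutrophils, was also 600-fold (386 to 920) higher with 37 counts in 22 cells. Under the same conditions it had the highest ratio to macrophage-gated cells among genes with a count there. A single count there gave 1268-fold with an interval of 214 to 51430. Il1f9 and Asprv1 had no count there and are given at a floor only, so Cd101 is not ranked against them. Padi4, the enzyme that converts arginine to citrulline in histones, was 585-fold (359 to 941) higher in 15 cells. Pglyrp1, a granule protein that binds bacterial peptidoglycan, was 559-fold (452 to 689) higher with 145 counts in 30 cells, 66 of them in 1 cell, and 322-fold (247 to 416) without that cell. Csf3r aside, the other members of the 25 highest ratios lay between 129-fold and 293-fold. They included the peptidase inhibitor gene Pi16 (293-fold), the C-type lectin receptor Clec4d (259-fold), Trim30b (224-fold), the Ras activator Rasgrp4 (212-fold) and the activating receptor Trem3 (204-fold). Further down came the glycogen-targeting phosphatase subunit Ppp1r3d (182-fold), the Schlafen gene Slfn1 (181-fold), Tmem154 (168-fold), the ectoenzyme Bst1 (154-fold), the histamine receptor Hrh2 (148-fold), the inhibitory lectin Cd33 (140-fold) and Mcemp1 (133-fold). Against macrophage-gated cells the 15 highest ratios added Slpi, an inhibitor of neutrophil elastase (171-fold, 103 to 302), and the anion transporter Slco4a1 (137-fold, 49.9 to 467).

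**Figure D2:**
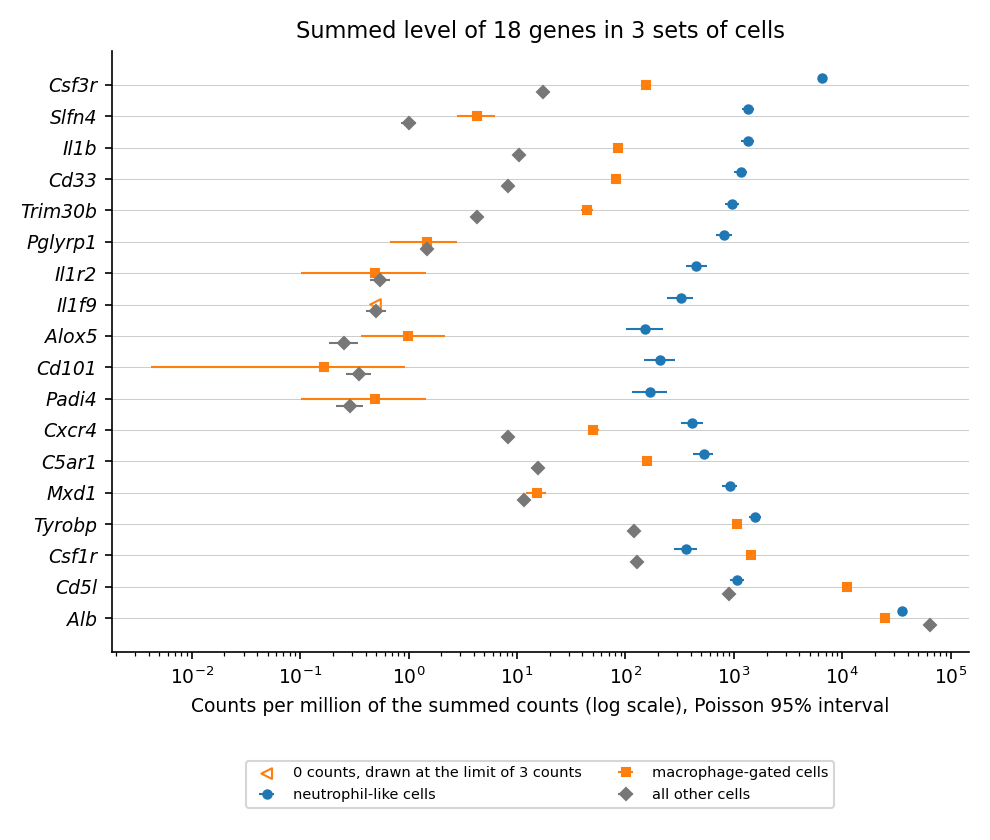
Summed level of 18 genes in CPM (log scale) in the 51 neutrophil-like cells, the 628 macrophage-gated cells and all 6028 other cells; points are levels, lines Poisson 95% intervals, and the open triangle marks 0 counts drawn at the limit of 3 counts. Csf3r stands at 6457 CPM in neutrophil-like cells, while Csf1r and Cd5l are 3.95-fold and 10.3-fold lower there than in macrophage-gated cells.

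A list of neutrophil identity genes, without the selecting genes, had 28 members in the files, all with a count. Against all other cells 25 of the 28 were higher and 1 was lower, with a median log2 ratio of 6.57 beside -0.54 over all genes. Against macrophage-gated cells 23 of 28 were higher and 1 lower, with a median of 5.55 beside -0.47. Of the 6 members with at least 10 counts expected from all other cells, 3 were higher and 1 lower (median 1.06), and of 11 such against macrophage-gated cells, 6 were higher and 1 lower (median 1.08). Sorl1, a sorting receptor, had 317 counts in 45 cells and was 88.7-fold (78.8 to 99.5) higher than in all other cells, and Hdc, which makes histamine, was 67.2-fold (50.7 to 87.6) higher. Ly6g, the antigen by which mouse neutrophils are commonly stained, had 15 counts in 5 cells, 10 of them in 1 cell, and these were 78.9% of its counts in the data. Among the exceptions were G0s2, an inhibitor of fat breakdown that hepatocytes also express, at 0.477-fold (0.291 to 0.737) of all other cells, and the formyl peptide receptor Fpr1, with 9 counts and 2.58-fold (1.35 to 5.66) lower than in macrophage-gated cells. Most of the identity genes thus stood above both comparators, and less so those with more counts elsewhere.

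Receptors that guide neutrophils to a site of injury summed to a higher level than in either comparator. The 11 chemoattractant receptor genes summed to 2179 CPM, against 92.1 CPM in all other and 839 CPM in macrophage-gated cells. All 11 were higher than in all other cells (median log2 4.67), where none had 10 counts expected, and 9 of 11 were higher and 2 lower than in macrophage-gated cells (median 1.74). Without the cell richest in granule genes, described below, 11 and 8 of the 11 were higher. C5ar1, the receptor for the complement fragment C5a, had 93 counts in 38 cells and was 33.9-fold (27.2 to 41.6) and 3.33-fold (2.67 to 4.13) higher. Ccr1, a receptor for inflammatory chemokines, was 175-fold (128 to 236) and 21.4-fold (14.9 to 30.5) higher. Cxcr4, which holds neutrophils in the marrow and is known to return on aged cells, had 73 counts in 22 cells and was 50.1-fold (39.0 to 63.4) and 8.18-fold (6.25 to 10.6) higher. Lymphocytes had it too, with 184 CPM in T and NK-gated and 206 CPM in B cell-gated cells, beside 412 CPM in the neutrophil-like cells. The receptor for the complement fragment C3a went the other way: C3ar1 had 10 counts, 7 of them in 1 cell, and was 4.41-fold (2.39 to 9.22) lower than in macrophage-gated cells. Cytokine and innate immune receptors gave 19 of 20 higher against all other cells (median 3.37) but 6 of 20 against macrophage-gated cells (median 0.41). Among these 6 were Il18rap, a subunit of the receptor for interleukin 18 (158-fold over all other cells), the amplifying receptor Trem1 (574-fold, 18 counts), Il17ra (17.9-fold) and Il4ra (13.1-fold). Il18rap was as frequent in T and NK-gated cells, at 331 CPM beside 220 CPM, with a count in 46.2% of them (median total 2883) and 45.1% of neutrophil-like cells (median total 2052), or 19.4% and 19.3% at 700 counts. Tyrobp, the signalling adaptor of many such receptors, was found in 50 of the 51 cells, at 1.48-fold (1.30 to 1.66) of the macrophage-gated level. Most of the 20 cytokine and innate immune receptors were thus within 2-fold of the macrophage-gated level. Without the 8 cells with genes of another type, described below, 8 of the 20 were higher and 1 lower.

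Genes of adhesion and movement were higher than in all other cells almost throughout. Adhesion genes gave 9 of 11 higher (median log2 3.90), and against macrophage-gated cells 5 of 11 higher and 1 lower (median 0.95). Selplg, a selectin ligand with which leukocytes roll on endothelium, had 145 counts in 41 cells and was 63.5-fold (53.3 to 75.1) higher than in all other cells. Itgam and Itgb2, the chains of the integrin Mac-1 that takes over firm adhesion, were 39.2-fold (30.5 to 49.6) and 14.9-fold (12.9 to 17.0) higher. Motility and signalling genes gave 19 of 19 higher than in all other cells (median 3.77), and 10 of 19 higher and 1 lower against macrophage-gated cells (median 1.12). Examples were Cd300lf, an inhibitory receptor (110-fold, 93.0 to 128), the Src family kinase Fgr (38.0-fold, 30.2 to 47.1), and the actin-binding Lsp1 (34.8-fold, 26.2 to 45.5) and Coro1a (25.7-fold, 22.3 to 29.3). Without the cell richest in granule genes, adhesion genes higher than in macrophage-gated cells numbered 4 of 11. Lymphocytes shared these lists: T and NK-gated cells stood at 15400 CPM for the motility list and 5077 CPM for the adhesion list, beside 13835 CPM and 6480 CPM in the neutrophil-like cells. Selplg was counted in 81.3% of T and NK-gated cells (median total 2883) and 80.4% of neutrophil-like cells (median total 2052), or 33.9% and 46.9% at 700 counts.

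The NADPH oxidase, which makes the superoxide of the respiratory burst, was represented by cytosolic and membrane subunits. The cytosolic subunits Ncf1 and Ncf4 were 31.4-fold (25.8 to 37.8) and 24.8-fold (18.8 to 32.0) higher than in all other cells, and 3.37-fold and 2.75-fold higher than in macrophage-gated cells. The GTPase Rac2 was 17.1-fold (14.5 to 20.0) higher than in all other cells, at 909 CPM, but T and NK-gated cells had more of it, 1942 CPM. Of the membrane subunits, Cyba was 6.53-fold (5.12 to 8.22) higher than in all other cells and at 0.841-fold (0.657 to 1.06) of the macrophage-gated level. Cybb had 32 counts in 8 cells, 22 of them in 1 cell, and was 3.30-fold (2.26 to 4.67) higher than in all other cells and 2.93-fold (2.07 to 4.30) lower than in macrophage-gated cells. Without that cell Cybb was at 1.09-fold (0.523 to 2.01) of all other cells and 0.113-fold (0.0540 to 0.207) of the macrophage-gated level. These cytosolic and membrane subunits thus differed in their ratio to macrophage-gated cells.

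Among cytokines, Il1b stood out. It had 237 counts in 37 of the 51 cells and was 129-fold (112 to 148) and 15.8-fold (13.5 to 18.5) higher than in all other and in macrophage-gated cells. A count was seen in 72.5% of neutrophil-like cells (median total 2052) and in 2.39% of endothelial-gated cells (median total 3982), or 51.0% and 0.330% at 700 counts. Of 19 cytokine and chemokine genes, 12 were higher and 6 lower than in all other cells (median log2 2.54), and 6 of 18 higher and 5 lower against macrophage-gated cells (median 0.48). Only 1 member had at least 10 counts expected from all other cells, and it was lower (log2 -1.045). Of 6 such against macrophage-gated cells, 2 were higher and 1 lower (median -0.03). Tnfsf14, or LIGHT, a ligand of the tumour necrosis factor family, had 26 counts in 17 cells and was 122-fold (78.1 to 185) higher than in all other cells. Nlrp3, the sensor of the inflammasome that matures interleukin 1 beta, was 25.9-fold (17.6 to 36.7) higher. Some other mediators had few counts: Tnf had 7, Cxcl2 had 4, and Il6, Il10, Cxcl1 and Cxcl3 were listed at 0, which allows up to 16.9 CPM. For Il10 only 0.129 counts were expected from all other cells, so its 0 does not show a low level. Il1rn had 18 counts in 14 cells and was 5.83-fold (3.45 to 9.23) higher than in all other cells. Of the 427 counts on this list, which does not hold Il1f9, 237 were of Il1b.

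The leukotriene pathway was present at its first steps. Of 9 eicosanoid genes, 6 were higher and 3 lower than in all other cells (median log2 1.49), and 3 of 8 higher and 3 lower against macrophage-gated cells (median 0.88). Without the cell richest in granule genes these were 5 of 9 and 4 of 8 higher, and without the 8 cells with genes of another type, described below, 6 of 9 and 4 of 8. Beside Alox5 itself, Alox5ap, the protein that presents arachidonic acid to it, had 144 counts in 39 cells and was 54.3-fold (45.6 to 64.2) and 13.0-fold (10.7 to 15.8) higher. Lta4h, which makes leukotriene B, had 18 counts, 10 of them in 1 cell, at 2.37-fold (1.40 to 3.74) of all other cells. Ltc4s, the enzyme of the cysteinyl branch, Ptges and Alox15 were listed at 0. Ptgs1, a cyclooxygenase, was 2.81-fold (1.74 to 4.29) higher than in all other cells and 4.02-fold (2.62 to 6.50) lower than in macrophage-gated cells.

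Transcription factor genes gave 13 of 18 higher and 1 lower against all other cells (median log2 1.95), and 10 of 18 higher and 1 lower against macrophage-gated cells (median 1.48). Without the cell richest in granule genes these were 12 higher and 2 lower, and 8 higher and 3 lower. Mxd1, a partner of Max that opposes Myc in maturing cells, had 162 counts in 38 cells and was 79.8-fold (67.5 to 93.7) and 60.4-fold (46.4 to 78.8) higher. Spi1, the ETS factor of the myeloid lineage, was 11.3-fold (8.74 to 14.4) higher than in all other cells and at 1.32-fold (1.01 to 1.69) of the macrophage-gated level. Cebpd, a C/EBP factor of late granulocytes, was 8.22-fold (6.67 to 10.0) and 7.35-fold (5.85 to 9.16) higher, while Cebpe, the factor that drives secondary granule genes, had 10 counts, 9 of them in 1 cell. Zeb2, a factor of macrophages and other lineages, was 3.33-fold (2.50 to 4.54) lower than in macrophage-gated cells. Survival and death genes gave 10 of 11 higher than in all other cells (median 2.70) and 6 of 11 against macrophage-gated cells (median 1.05). Mcl1, the short-lived protein on which neutrophil survival depends, had 224 counts in 46 cells and was 6.49-fold (5.66 to 7.40) and 2.41-fold (2.09 to 2.76) higher.

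Interferon-induced genes were uneven. Of 13 genes, 12 were higher than in all other cells (median log2 2.15), yet 4 were higher and 1 lower against macrophage-gated cells, with a median of -0.25. Among the 4 were Slfn4 and the membrane proteins Ifitm1 and Ifitm2, which restrict virus entry; Ifitm1 had 178 counts in 40 cells and was 67.7-fold (57.8 to 78.8) and 37.9-fold (30.4 to 47.2) higher. Classical interferon targets had few counts, with 9 for Isg15, 13 for Ifit3 and 11 for Rsad2. The lead of Slfn4 was thus not shared by the list as a whole. Over the 51 cells Slfn4 followed the other interferon-induced genes with a Spearman rho of 0.393 and Il1b with 0.294, per count of the cell. Glycolysis and hypoxia genes gave 5 of 10 higher and 2 lower than in all other cells (median 1.30). Against macrophage-gated cells 2 of 10 were higher and 2 lower (median 0.14), 20% each beside 13.3% and 37.8% of all genes. Of the 3 members with at least 10 counts expected from all other cells, 0 were higher and 1 lower (median -0.51). Of 4 such against macrophage-gated cells, 0 were higher and 1 lower (median -0.37). The glucose transporter Slc2a3 was 113-fold (82.6 to 152) and 34.3-fold (22.7 to 51.8) higher. Of 6 genes tied to extracellular traps, 2 were higher and 2 lower than in all other cells (median -0.11), 33.3% each beside 20.5% and 42.7% of all genes. Against macrophage-gated cells 1 was higher and 2 lower (median -0.38), 16.7% and 33.3% beside 13.3% and 37.8%. Those higher than in all other cells were Padi4 and the pore-forming Gsdmd (3.62-fold), with Mpo and Elane at 0.

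Granule genes split by stage and by cell. Of 8 primary granule genes, Mpo, Elane, Ctsg and Ms4a3 were listed at 0 in all 51 cells, Bpi had 0 counts in any cell of either library, Prtn3 had 2 counts and Serpinb1a 9, each in 1 cell, and the protease activator Ctsc, with the most counts, was 8.85-fold (6.36 to 12.7) lower than in macrophage-gated cells (log2 -3.15) and within 2-fold of all other cells (log2 0.24). Of 11 secondary granule genes Olfm4 was at 0, 9 were higher than in all other cells (median log2 8.78) and 10 of 10 than in macrophage-gated cells (median 8.005), but 8 of them took over 50% of their counts from a single cell. That cell, labelled AEG-1fl/fl and with 9553 counts, held 634 of 634 counts of Ngp, 520 of 520 of lactoferrin (Ltf), 385 of 386 of the cathelicidin gene Camp, 210 of 274 of the siderophore-binding Lcn2, 155 of 156 of Chil3 and 50 of 54 of Cd177. Its 520 counts of Ltf were 95.1% of those in both libraries together. It also held 9 of the 10 counts of Cebpe, all 27 counts of Fcnb, 10 of the 15 of Ly6g, 68 of the 107 of Lyz2 and 22 of the 32 of Cybb, with 3 counts of Csf3r and 0 of Il1b. Of the secondary granule list this cell held 2049 of 3106 counts, so that mRNA in the pool was largely that of 1 cell. It held 99 of 367 counts of the tertiary and 14 of 46 of the primary granule list.

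Without that cell, 5 of 11 secondary granule genes were higher and 4 lower than in all other cells, and 5 of 9 higher and 2 lower than in macrophage-gated cells. Mmp8, a collagenase of these granules, had 18 counts in 9 cells with no more than 5 in any, and was 198-fold (112 to 330) higher than in all other cells without it. Lcn2 fell to 64 counts and 1.34-fold (1.03 to 1.71), and Hp to 963 counts and 0.679-fold (0.637 to 0.724) of all other cells; hepatocytes secrete the products of both. Tertiary granule genes gave 5 of 7 higher than in all other cells (median log2 2.20), and 3 higher and 3 lower of 7 against macrophage-gated cells (median 0.44), or 4 and 2 of 7 higher without that cell. Mmp25, a membrane-bound metalloproteinase, had 14 counts in 7 cells and was 142-fold (75 to 251) higher than in all other cells. Lyz2, whose locus carries the Cre, had 107 counts in 22 cells and was 2.07-fold (1.71 to 2.52) lower than in macrophage-gated cells; without that cell it had 39 counts, at 0.186-fold (0.132 to 0.255) of their level.

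Promoters of genes that were high together are shown to let a reader see their letters: Clec4d, Pglyrp1 and Alox5 from the leading genes, and Ltf and Ngp from the granule-rich cell, chosen after the values were seen. RefSeq promoters (build GRCm38.p6) were found for 21 of the 25 genes with the highest ratio, and 3 motifs, also chosen after the values were seen, were searched on both strands. GAGGAA, a core bound by the factor of Spi1, was in 12 of the 21 promoters (57.1%) and in 25.9% of 27025 genes' promoters. GGAAGT, an ETS core that can overlap it, was in 10 of 21 (47.6%) against 22.2%. TTGCNNAA, a C/EBP motif, was in 1 of 21 (4.76%) against 10.8%. A match is a description of these windows. The sequences run 5′ to 3′ on the gene's strand, from chr6:123261857-123262106 (Clec4d, plus strand), chr7:18884440-18884679 (Pglyrp1, plus), chr6:116461179-116461428 (Alox5, minus), chr9:111019042-111019270 (Ltf, plus) and chr9:110419558-110419746 (Ngp, plus). Capitals mark GAGGAA or its reverse complement TTCCTC in Clec4d, Pglyrp1 and Alox5, and TTGCNNAA or its reverse complement in Ltf and Ngp. Camp, Ngp and Ltf also share chromosome 9, from 109847379 at the start of Camp to 111042767 at the end of Ltf.
Clec4d: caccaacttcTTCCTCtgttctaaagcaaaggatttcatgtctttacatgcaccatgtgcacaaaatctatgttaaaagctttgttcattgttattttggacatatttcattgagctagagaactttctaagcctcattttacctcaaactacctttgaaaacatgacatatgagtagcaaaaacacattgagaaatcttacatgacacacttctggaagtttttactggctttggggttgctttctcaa
Pglyrp1: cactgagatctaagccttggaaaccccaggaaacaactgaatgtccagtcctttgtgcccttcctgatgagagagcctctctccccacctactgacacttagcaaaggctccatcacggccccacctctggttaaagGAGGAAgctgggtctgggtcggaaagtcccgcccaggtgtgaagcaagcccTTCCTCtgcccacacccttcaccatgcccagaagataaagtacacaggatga
Alox5: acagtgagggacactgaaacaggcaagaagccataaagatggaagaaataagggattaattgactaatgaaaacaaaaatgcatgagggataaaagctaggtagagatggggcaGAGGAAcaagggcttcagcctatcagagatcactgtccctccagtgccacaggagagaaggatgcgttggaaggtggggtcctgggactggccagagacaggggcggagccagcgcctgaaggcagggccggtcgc
Ltf: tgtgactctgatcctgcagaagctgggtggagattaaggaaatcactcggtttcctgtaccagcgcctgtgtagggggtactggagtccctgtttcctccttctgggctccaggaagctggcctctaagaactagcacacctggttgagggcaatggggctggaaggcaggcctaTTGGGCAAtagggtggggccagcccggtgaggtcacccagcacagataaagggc
Ngp: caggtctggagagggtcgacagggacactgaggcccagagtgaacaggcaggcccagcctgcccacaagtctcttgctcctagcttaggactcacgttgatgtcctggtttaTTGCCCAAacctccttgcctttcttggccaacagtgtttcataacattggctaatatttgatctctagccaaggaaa

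The lowest genes against all other cells were led by Nr1i3 and Mlxipl. Nr1i3, a nuclear receptor for foreign compounds, had 2 counts and was 16.0-fold (4.43 to 132) lower, and Mlxipl, a glucose-responsive factor of lipid synthesis, was 12.1-fold (5.85 to 30.0) lower. Prox1, a hepatocyte and lymphatic transcription factor, was 10.7-fold (2.98 to 88.8) lower, and the lipid droplet gene Plin4 10.1-fold (5.34 to 22.2). The other 6 of the 10 lowest, Dpyd, G6pc, Eppk1, Atp1b1, Hsd17b2 and Cyp1a2, were between 8.06-fold and 9.71-fold lower. These ratios changed with the cells kept. When cells with N of at least 10 per 10000 were kept, the log2 ratio of Nr1i3 to all other cells went from -4.00 to 0.095, that of Mlxipl from -3.59 to -0.59, that of Plin4 from -3.34 to -0.69, that of Dpyd from -3.28 to -0.94 and that of Prox1 from -3.43 to -1.07. The other 5 genes had log2 ratios of -1.13 or lower under each alternative.

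The lowest genes against macrophage-gated cells include some that the selection on M favours. Stab2, a scavenger receptor of sinusoidal endothelium, had 0 counts and was at least 13.2-fold lower, and Timd4, a receptor of resident Kupffer cells for dying cells, had 0 counts and was at least 7.51-fold lower. With 1 count each, Lilra5 was 43.5-fold (7.80 to 1720) lower, Ptprm 40.1-fold (7.19 to 1586), Adgre4 36.1-fold (6.47 to 1427), Rgl1 35.9-fold (6.43 to 1418), Cd207 32.6-fold (5.84 to 1288), Rab3il1 25.4-fold (4.54 to 1004) and the haemoglobin scavenger Cd163 23.9-fold (4.28 to 945). Those single counts leave wide intervals, while the kinase gene Dmpk, with 11 counts, was 24.2-fold (13.5 to 48.6) lower. Of 9 Kupffer cell genes outside M, 0 were higher and 1 lower than in all other cells (median log2 0.15). Of 11 monocyte and macrophage genes, 9 of 11 were lower than in macrophage-gated cells (median -2.00), among them Csf1r, the receptor of macrophage colony-stimulating factor, 3.95-fold (3.09 to 5.14). The limits on M favour that direction, so nothing is read from it. Against all other cells 3 of 11 were higher and 2 lower (median 0.41), 27.3% and 18.2% beside 20.5% and 42.7% of all genes.

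RNA of other liver cells was counted in the neutrophil-like cells, and its part in the ratios was not tested. The 19 hepatocyte genes took 11.3% of the pooled counts (11.2 to 11.5), most of all Alb with 6325 counts, against 19.5% in all other cells, 10.2% in macrophage-gated, 9.90% in endothelial-gated and 4.05% in T and NK-gated cells. Apoe, which macrophages also express, made up 239137 of the 622252 list counts of macrophage-gated cells, so their share is not one of hepatocyte RNA alone. Against all other cells 7 of the 19 were lower (36.8%, beside 42.7% of all genes) and 0 higher (beside 20.5%), with a median log2 ratio of -0.92 beside -0.54. Against macrophage-gated cells 0 were lower or higher, beside 37.8% and 13.3% of all genes (median 0.44 beside -0.47). Per cell the share ran from 0.801% to 25.5% with a median of 5.74%; 24 cells were under 5% and 7 over 15%. Deeper cells tended to have more, with a Spearman rho of 0.452 between total counts and the share over the 51 cells. Without the 9 cells over 3 times the median total the pooled share was 7.44%, and in the 4 cells labelled AEG-1DMAC alone it was 5.72%. The Kupffer cell list stood at 2145 CPM, against 1882 CPM in all other and 22944 CPM in macrophage-gated cells, with Cd5l most counted (189) and Timd4 at 0. A single cell of 14873 counts held 155 of its 380 counts, and that cell also had the highest M, 14, beside N of 34.

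Markers of other lineages were counted in part of the 51 cells: T and NK genes in 3, dendritic cell genes in 5, B cell genes in 9 and stellate cell genes in 19. The T and NK list of 7 genes stood at 141 CPM, against 16.6 CPM in all other cells, from 25 counts, with Cd3d and Trbc1 most counted (7 each) and Ncr1 and Klre1 at 0. The B cell list was at 339 CPM against 51.2 CPM, with 50 of its 60 counts in 1 cell of 3085 counts and Ighm most counted (27). The dendritic cell list was at 192 CPM against 36.9 CPM, with 29 of its 34 counts in 1 cell of 4436 counts, Clec9a most counted (25) and Cd209a at 0. The stellate cell list was at 841 CPM against 512 CPM, with 94 of its 149 counts in 1 cell of 10271 counts and Colec11 most counted (46). In all, 8 of the 51 cells passed limits like those on N for the T and NK, B, dendritic, endothelial, stellate or cholangiocyte list. These were 3 for T and NK, 3 for stellate, 1 for B and 1 for dendritic genes, and 6 of the 8 had Csf3r. Without these 8 cells, Igkc went from 21 counts to 0 and Clec9a from 25 to 4, while Csf3r stood 409-fold (381 to 439) over all other cells. Other lists, those of Kupffer cells and of monocytes and macrophages among them, were not part of that check. Leaving out the 8 cells thus kept cells with such counts, as 1 of 834 counts with 24 of Kupffer cell genes and 1 of 14873 with 155.

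The remaining lists had few counts. Endothelial genes were at 84.7 CPM against 229 CPM in all other cells, with Clec4g most counted (9) and Stab2 and Ushbp1 at 0. Of the 5, 1 was higher and 3 lower than in all other cells (20% and 60%, beside 20.5% and 42.7% of all genes). Against macrophage-gated cells 0 were higher and 3 lower (60%, beside 37.8%). Cholangiocyte genes had 5 counts, all of Krt7 (28.2 CPM against 38.0), with Epcam, Sox9 and Krt19 at 0. Erythroid genes were at 508 CPM against 268 CPM, with Hbb-bs most counted (41) and 35 of the 90 counts in 1 cell labelled AEG-1DMAC, and 3 of 5 were higher than in all other cells. Platelet genes had 9 counts (50.8 CPM against 11.7), Ppbp most counted with 4 and Gp9 at 0, and cycling genes had 5 counts (28.2 CPM against 34.5), with Top2a most counted (2) and Cdk1 at 0. Mast cell and basophil genes had 2 counts, both of Gata2, with Mcpt8, Cpa3, Fcer1a, Ms4a2 and Cma1 at 0. Of 5 eosinophil genes, Epx, Prg2, Ccr3 and Il5ra were at 0, and Epx had 0 counts in any cell of either library. Siglecf, a lectin named for eosinophils, had 38 counts in 17 cells and was 65.9-fold (46.2 to 91.7) higher than in all other cells and 6.45-fold (4.43 to 9.15) higher than in macrophage-gated cells. Siglecf therefore came without counts of the other eosinophil genes.

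The 51 cells varied in which genes they combined. Cxcr2 and Csf3r occurred together in 46 cells, and S100a8 or S100a9 in 48. At least 5 counts of Il1b were found in 20 cells and of Slfn4 in 16, with both in 9, so cells rich in these genes overlapped only in part. Interferon-induced genes ranged from 0 to 489 per 10000 counts with a median of 34.3, and the highest cell had 59 such counts in a total of 1206. No Csf3r was counted in 3 cells: for 2 of them N was Mmp9 alone and T and NK genes had 8 and 11 counts, and the other, of 834 counts, had 24 counts of Kupffer cell genes.

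The 4 cells labelled AEG-1DMAC had totals of 738, 1443, 2149 and 7204 counts and N of 17, 55, 26 and 51. Csf3r was counted in each, with 7, 31, 33 and 34 counts, and so were Il1b, with 8, 1, 2 and 19 counts, and Slfn4, with 9, 16, 4 and 4 counts. These cells lay inside the range of the 47 labelled AEG-1fl/fl for Csf3r, Il1b and Slfn4 per cell, where the highest counts were 45, 22 and 30. None of the 4 passed the limits of the T and NK, B, dendritic, endothelial, stellate or cholangiocyte list. Other lists were not part of that check. The cell of 2149 counts had 5 counts of Kupffer cell genes, and that of 7204 had 35 of erythroid genes. Their number was too small, with 1 library for each label, to compare genotypes. The ranges are of raw counts in cells of different totals, and nothing about genotype is read from them.

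**Figure D3:**
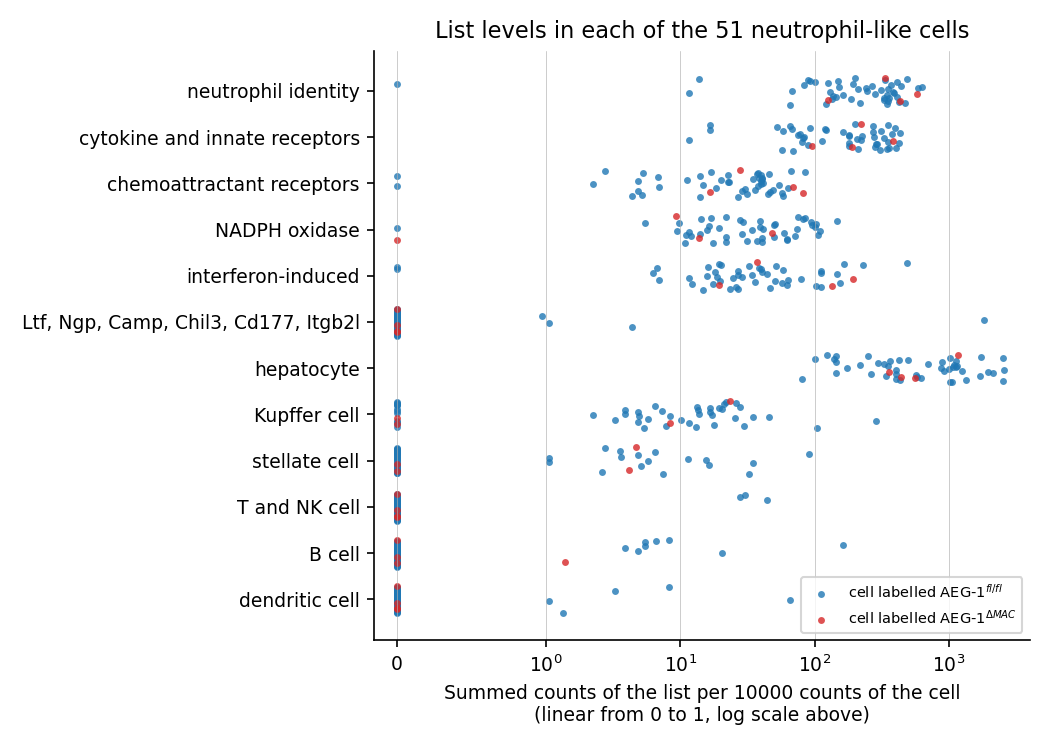
Each point is 1 of the 51 neutrophil-like cells, in colour by library label, placed by the summed counts of a gene list per 10000 counts of the cell (linear from 0 to 1, log scale above). The 6 granule genes Ltf, Ngp, Camp, Chil3, Cd177 and Itgb2l are above 0 in 4 cells only, and 1 cell holds 1755 of their counts.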

How the data were processed

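Raw counts per gene and cell were deposited by the authors for each library, made according to the submitters' processing notes with Cell Ranger 7.1.0 and the mm10 reference; counts were not normalized. Seurat clustering and the study's cell labels were not used here. In Python 3.11.15 with NumPy 2.4.6, SciPy 1.17.1, pandas 2.3.3 and matplotlib 3.10.9, cells were filtered and chosen by the stated limits; the minimum of 3 cells per gene was not applied. No doublet caller was run and no doublet was removed. Counts were summed over cells and divided by the summed total, and CPM ratios of at least 2 or at most 0.5 were called. The selecting genes and those of M were left out of the calls against both comparators. No test was made, since each genotype has 1 library. The comparison was checked on simulated data. Gates for other cell types mirrored the rule, with their list's raw sum at least 5, at least 20 per 10000 and over 2 times N. Cells passing several gates were left out of the T and NK, B, endothelial, stellate and cholangiocyte sets. The macrophage-gated set and the nonparenchymal comparator kept such cells. Thinned shares are hypergeometric expectations.

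Named genes were the selecting genes, Csf3r, Srgn and Mtdh, the 25 highest ratios against all other and 15 against macrophage-gated cells (at least 20 counts, at least 10 cells, no cell over 50% of the counts), the 10 lowest of each (at least 20 counts expected), and list members; Fcnb was named after its values were seen. Members and lists were chosen with earlier results of these data known. Lists were counted with no minimum of counts, a choice made after the values were seen. Listed but not in the files were Mrgpra2b, Stfa2l1, Fcn1, Clec7a, Bcl2a1a, Actb, Serpina1e, Ly6c2, Ear1, Ear2, Mmrn2 and Ccnb1. Gene positions are from GENCODE on GRCm38. Alternatives changed the limits on N, M and cells, the genes of N, the libraries, the comparator, the count minimum and the cells kept.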

Additional observations from a re-analysis of the deposited data

How the results depend on the processing

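Of 1714 alternative values of named-gene ratios, 1423 stayed inside the reported interval, 289 moved out of it, and 2 ratios that were past 2-fold, of genes with enough counts to be compared, changed sign: with N of at least 10 per 10000, the log2 ratio of Nr1i3 to all other cells was 0.095 (-4.00 as reported) and that of Dpyd to macrophage-gated cells 0.82 (-1.52). That setting also gave a hepatocyte share of 10.6%, and N of at least 40 per 10000 gave 7.66% with 537 genes lower than in macrophage-gated cells. The share was 11.6% with N over M, 11.7% with N over 4 times M, 11.1% with a stricter cell filter (500 genes, 5% mitochondrial), and 8.06% as a mean over cells. N without S100a8 and S100a9 kept 33 cells, with a share of 9.38% and 541 genes lower. The library labelled AEG-1fl/fl alone gave a share of 11.7%. The library labelled AEG-1DMAC alone gave 4 cells, a share of 5.72%, 77 genes higher and 90 lower than all other cells, and 67 higher and 45 lower than macrophage-gated cells, where fewer counts left fewer genes to compare. Without cells over 3 times the median total, the share was 7.44% and 463 genes were lower. A minimum of 20 counts compared fewer genes, 858 higher and 401 lower against all other cells, and 423 and 413 against macrophage-gated cells. A nonparenchymal comparator gave 670 genes higher and 827 lower, in place of 1519 and 708, so the larger count was then that of lower genes. Alternatives added after seeing the data put the minimum on expected counts alone, with 285 genes higher than all other and 207 higher than macrophage-gated cells, or set none, with 3282 higher and 6826 lower than all other cells, and 1855 higher and 5265 lower than macrophage-gated cells. Others left out the granule-rich cell (share 11.8%), the 8 cells with genes of another type (12.5%) and the 3 without Csf3r (11.6%). Where no reason is given, the cause was not tested. The 79 values of the main results that did not move further, that of 827 among them, stayed within 1.5 times the reported count or within the interval of the reported share. No paired analysis was possible because each genotype has 1 library. Precision is limited by 177166 counts in 51 cells.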
